A study of Mus musculus with 13 samples.

Results

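The subject is Adipoq and 9 genes that lie around it on mouse chromosome 16, 10 of 13360 genes tested in interscapular brown adipose tissue (iBAT). They are, in their order along the chromosome (GRCm38), Tbccd1, Dnajb11, Kng2, Eif4a2, Rfc4, 6330408M09Rik, Adipoq, B630019A10Rik, BC106179 and St6gal1, and together they span 547 kb. The genes were chosen by their levels in the genotypes of these same libraries, with the differences already known, so these differences are given below as a description and without a test.

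Bulk RNA of whole iBAT was sequenced in 13 libraries, 8 labelled iFAXLKO and 5 labelled WT. In both genotypes Axl carries loxP sites. Mice of both groups were given tamoxifen every 3 weeks, ate a high-fat diet (HFD) and lived at room temperature. The iFAXLKO mice are Cre positive and the WT controls Cre negative. Per the methods of the study, the Cre is CreERT2, which tamoxifen activates, placed in the RPCI-24-69M4 bacterial artificial chromosome (BAC) to be driven by Adipoq, and the mice used were heterozygous for it. The ends of this clone, the number of BAC copies and the place where they inserted are not given in the sources used here, nor is the age of the mice at sampling in the labels. Counts per gene do not distinguish a transcript of the chromosomal gene from one of a copy on a transgene, so these sources of reads cannot be told apart. CreERT2 itself is no feature of the count tables.

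Adipoq encodes adiponectin, a hormone that adipocytes secrete and that serves as a marker of their differentiation. Its neighbours have unrelated functions: Eif4a2 encodes an RNA helicase of the translation initiation complex eIF4F, and Rfc4 a subunit of replication factor C, which loads the sliding clamp onto DNA. BAC transgenes carry long stretches of chromosome, which may include other genes beside the one that was cloned for its promoter.

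Total counts were between 22.44 and 30.98 M (as in Mb) in iFAXLKO and between 24.92 and 32.6 M in WT, and 18.33% to 21.31% of them came from mitochondrially encoded genes. Levels below are in CPM, the count of a gene for each M counted in its library, scaled with TMM factors, where TMM (trimmed mean of M values) corrects for composition, and 3 counts correspond to between 0.092 and 0.134 CPM. Axl, which the Cre targets, had no lower level in iFAXLKO, where it stood at 33.1 ± 6.16 CPM (SD, n = 8), than in WT with 27.8 ± 3.82 CPM (SD, n = 5). It had a log2 fold change of 0.25 (SE 0.13) and an adjusted p of 0.699 in edgeR. The study describes the deletion as specific to adipocytes, whereas this RNA is of whole iBAT. AXL protein was assessed in the study by western blot in the mature fraction of inguinal white fat, which is no part of these data. The genotypes are therefore taken from the labels. The 4 genes of the Y chromosome followed had no count in any library, while Xist was expressed in all. Brown adipocyte markers were expressed in every library, with a summed level of 7568 to 11500 CPM in iFAXLKO and 9420 to 14140 CPM in WT, whereas skeletal muscle markers ranged from 2.91 to 5241 CPM in iFAXLKO and from 21.0 to 3658 CPM in WT. WT replicate 2 had the lowest TMM factor, 0.897, and stands apart in several of the genes below.

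Start sequences are shown for the genes whose levels the results turn on, because Adipoq and the raised genes upstream of it begin from unlike DNA. The sequences are from RefSeq (GRCm38.p6), which had an entry for 7 of the 10 genes, and each is the 250 bases before the start that RefSeq gives, 5′ to 3′ on the strand of the gene. The GENCODE starts used elsewhere lie further upstream for 2 of them, so that the last 24 bases of the Eif4a2 stretch and the last 7 of the Rfc4 stretch fall inside the GENCODE gene. In the first and second, capitals mark matches to CCAAT or GGGCGG on either strand, and in the third they mark the 55 bases (chr16:23127738-23127792) between the GENCODE starts of Rfc4 and of 6330408M09Rik, which point away from each other.
Adipoq, chr16:23146286-23146535, plus strand: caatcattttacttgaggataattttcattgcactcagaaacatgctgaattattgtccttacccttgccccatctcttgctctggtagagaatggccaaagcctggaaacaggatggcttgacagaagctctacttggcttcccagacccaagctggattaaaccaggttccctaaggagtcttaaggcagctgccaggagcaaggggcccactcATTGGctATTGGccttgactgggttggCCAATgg
Eif4a2, chr16:23107218-23107467, plus strand: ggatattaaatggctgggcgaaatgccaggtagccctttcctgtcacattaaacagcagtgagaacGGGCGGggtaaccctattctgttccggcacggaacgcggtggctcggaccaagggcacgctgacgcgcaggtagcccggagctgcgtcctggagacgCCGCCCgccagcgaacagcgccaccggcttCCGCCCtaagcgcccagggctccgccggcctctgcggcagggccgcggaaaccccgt
Rfc4, chr16:23127731-23127980, minus strand: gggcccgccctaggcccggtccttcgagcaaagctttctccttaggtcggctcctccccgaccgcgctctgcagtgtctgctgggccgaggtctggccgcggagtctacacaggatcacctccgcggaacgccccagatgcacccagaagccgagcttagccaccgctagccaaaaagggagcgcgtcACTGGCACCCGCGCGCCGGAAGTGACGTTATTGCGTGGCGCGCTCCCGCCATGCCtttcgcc

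The Adipoq stretch held 0 CG dinucleotides, as did 7.86% of the 32841 promoter stretches of this length in the table, and 48.8% of its bases were G or C (median 52.4%). It held 3 matches to CCAAT, a motif found in 33.9% of the stretches. The Eif4a2 and Rfc4 stretches held 27 CG dinucleotides each, more than 91.4% of all stretches, with 66.4% and 67.2% G or C. GGGCGG matched at 3 places in Eif4a2 and at 1 in Rfc4, and it was found in 32.7% of the stretches. TATAAA, present in 12.4% of them, matched in none of the 3, and no match overlapped another. These are matches of letters and say nothing about binding. Among the stretches not shown, that of Dnajb11, whose CPM ranges overlapped between the genotypes, held 29 CG dinucleotides, more than 93.2% of all stretches. That of BC106179, one of the raised genes, held 14, more than 70.6%. A high CG count was thus not particular to the raised genes.

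Of the 10 genes, 6 had CPM ranges that did not overlap between the genotypes, all higher in iFAXLKO: Eif4a2, Rfc4, 6330408M09Rik, Adipoq, B630019A10Rik and BC106179. Over all genes tested, 0.24% had ranges apart in this direction, and 0.0973% were called higher at an adjusted p under 0.05 (0.127% in either direction). These shares include the 10 genes themselves. Since these differences chose the genes, nothing is read from their count. All 10 genes passed the filter of more than 1 CPM in at least 5 libraries. For B630019A10Rik and BC106179 it was met only through the iFAXLKO libraries, and for 6330408M09Rik 1 WT library exceeded 1 CPM.

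**Figure D1:**
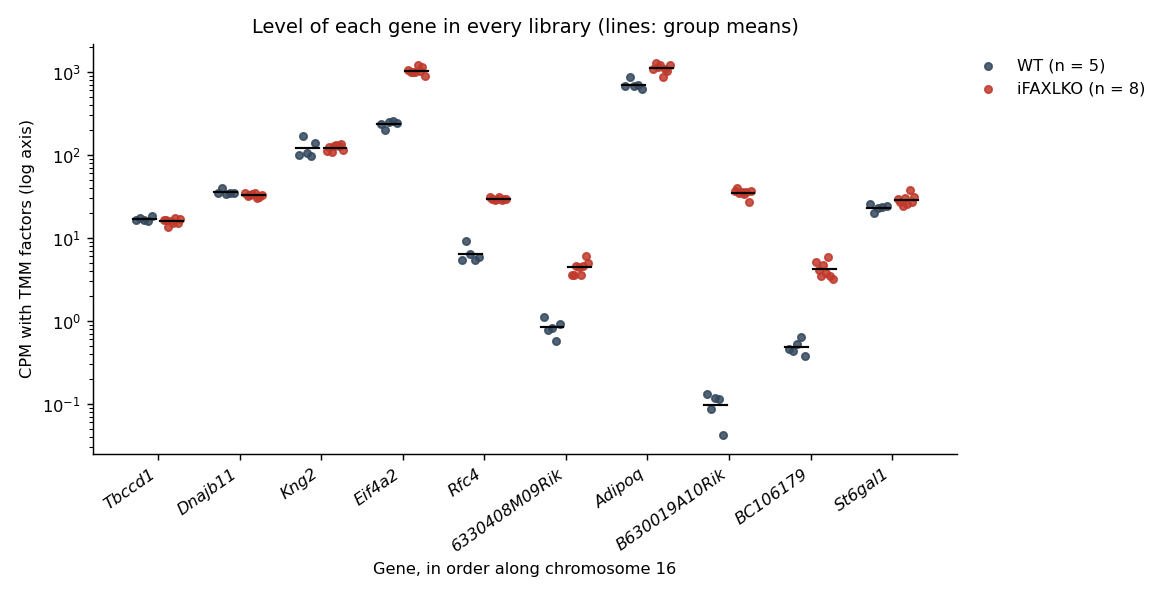
CPM with TMM factors (log axis) of the 10 genes in every library, in their order along chromosome 16, with 1 point per library (WT n = 5, iFAXLKO n = 8) and a line at each group mean. The points of Eif4a2, Rfc4, 6330408M09Rik, Adipoq, B630019A10Rik and BC106179 lie apart, while those of Tbccd1, Dnajb11, Kng2 and St6gal1 overlap.

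Adipoq (ENSMUSG00000022878, chr16:23146536-23158028, plus strand) had the highest level per kb of exon of the 10 genes in both genotypes, and it differed between them by the smallest factor of the 6. The WT libraries, in replicate order, had 678.6, 865.2, 675.1, 700.4 and 620.6 CPM, and the 8 iFAXLKO libraries had from 878.9 to 1300.0 CPM with a median of 1118 CPM. The ranges almost touched, since the lowest iFAXLKO library (replicate 5) was 1.02 times the highest WT library (replicate 2), and the other libraries were well apart. The means were 1120 ± 132 CPM (SD, n = 8) and 708 ± 92.7 CPM (SD, n = 5), which gave 0.66 (SE 0.11) on the log2 scale, or 1.58-fold. Without WT replicate 2 the log2 fold change was 0.74. The library numbers in the labels fall into a lower range (4 iFAXLKO and 2 WT libraries) and an upper range (4 and 3), and within these the log2 fold change was 0.62 and 0.66.

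Eif4a2 (ENSMUSG00000022884, chr16:23107444-23114136, plus strand), 32.4 kb from Adipoq, held the largest share of the reads gained in iFAXLKO. Its WT libraries had 235.9, 199.7, 253.2, 257.4 and 243.9 CPM, and its iFAXLKO libraries from 888.1 to 1219 CPM with a median of 1019 CPM. The lowest iFAXLKO library was 3.45 times the highest WT library, and no library lay between the groups. With means of 1041 ± 100.1 CPM (SD, n = 8) and 238 ± 23.0 CPM (SD, n = 5), the log2 fold change was 2.13 (SE 0.10), 4.38-fold, and it was 2.22 and 2.09 within the lower and the upper range of library numbers. Eif4a2 contains 6 small RNA genes on its own strand, among them Snord2 and Snora81, which guide modifications of ribosomal RNA. Their log2 fold changes were 2.24 to 2.52, given without a test, since their reads cannot be told apart from those of Eif4a2 and all 6 passed the filter only through the iFAXLKO libraries (at most 0.818 CPM in WT).

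Rfc4 (ENSMUSG00000022881, chr16:23113943-23127737, minus strand) had a much lower level, which in iFAXLKO varied the least of the 10 genes. The WT libraries had 5.47, 9.08, 6.35, 5.39 and 5.90 CPM, and the iFAXLKO libraries from 28.3 to 31.3 CPM with a median of 29.5 CPM. The coefficient of variation was 3.62% among the 8 iFAXLKO libraries and 23.7% among the 5 WT libraries, where replicate 2 was high. The means were 29.6 ± 1.07 CPM (SD, n = 8) and 6.44 ± 1.53 CPM (SD, n = 5), and the log2 fold change was 2.21 (SE 0.11), or 2.36 without WT replicate 2. Rfc4 and Eif4a2 run towards each other and share 194 bases of exon at their 3′ ends. As the strand setting of the counting is not stated, reads of these bases could have been given to either gene or to none.

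6330408M09Rik (ENSMUSG00000116733, chr16:23127793-23128922, plus strand) is annotated as a long non-coding RNA from a bidirectional promoter, and it starts 55 bases from Rfc4. In WT it had 1.11, 0.782, 0.824, 0.573 and 0.928 CPM, from 15 to 34 counts a library, and in iFAXLKO from 3.55 to 6.05 CPM with a median of 4.54 CPM, from 95 to 161 counts. All 8 iFAXLKO libraries lay above the WT libraries, the lowest by 3.19 times the highest WT value. The log2 fold change was 2.38 (SE 0.19), 2.08 within the lower and 2.63 within the upper range of library numbers. The ratio of Rfc4 to 6330408M09Rik was 6.92 ± 1.5 (SD, n = 8) in iFAXLKO and 8.00 ± 2.6 (SD, n = 5) in WT, so both transcripts of this divergent pair differed between the genotypes by a like factor.

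B630019A10Rik (ENSMUSG00000068463, chr16:23175280-23224446, plus strand), an antisense transcript that begins 17.3 kb beyond the end of Adipoq, was near the limit of detection in WT. The 5 WT libraries held 4, 2, 4, 3 and 1 counts of it, and the iFAXLKO libraries had from 27.4 to 40.1 CPM with a median of 35.8 CPM. In all, 14 counts in WT stood against 7589 in iFAXLKO, and the ratio of the pooled CPM was 358. This ratio rests on the 14 WT counts and is imprecise. The lowest iFAXLKO library was 209 times the highest WT library. The fitted log2 fold change of 8.37 (SE 0.17) depends on the handling of these few counts.

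BC106179 (ENSMUSG00000045231, chr16:23220656-23225484, minus strand) overlaps B630019A10Rik by 3791 bases on the opposite strand, 1582 of them exonic in both. It had 0.458, 0.435, 0.530, 0.649 and 0.379 CPM in WT, from 9 to 18 counts, and from 3.18 to 5.84 CPM with a median of 3.94 CPM in iFAXLKO, from 80 to 155 counts. The groups were apart by a factor of 4.9 between the lowest iFAXLKO and the highest WT library, and the log2 fold change was 3.09 (SE 0.20). B630019A10Rik was 8.61 ± 1.8 times as high as BC106179 in iFAXLKO (SD, n = 8) and 0.199 ± 0.064 times as high in WT (SD, n = 5), so the order of the pair was turned between the genotypes, as it was per kb of exon (4.17 and 1.02 CPM per kb in iFAXLKO, 0.0117 and 0.118 in WT). With 43.0% of the exonic bases of BC106179 shared with other genes, its reads and those of its antisense partner cannot be fully told apart.

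St6gal1 (ENSMUSG00000022885, chr16:23224740-23360350, plus strand), which encodes a sialyltransferase that caps glycans with sialic acid, flanks the raised genes on the distal side and shares 200 exonic bases with BC106179. It had 25.53, 19.95, 23.06, 23.34 and 24.03 CPM in WT and from 24.4 to 37.8 CPM in iFAXLKO, with a median of 28.2 CPM. The ranges overlapped, with 6 of 8 iFAXLKO libraries above the highest WT library and 8 of 8 above the WT mean. The log2 fold change was 0.33 (SE 0.10), 0.29 and 0.37 within the ranges of library numbers.

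On the other side the nearest gene tested was Kng2 (ENSMUSG00000060459, chr16:22985854-23029482, minus strand), a kininogen gene whose end lies 78 kb before the start of Eif4a2. Kng2 had 100.2, 171.7, 105.8, 97.9 and 139.5 CPM in WT and from 109.6 to 134.1 CPM in iFAXLKO, with a median of 125.5 CPM. All iFAXLKO libraries lay inside the WT range, which replicates 2 and 5 widened, and the log2 fold change was 0.00 (SE 0.12), with 0.15 without WT replicate 2. Liver is the best known source of kininogen. Hepatocyte markers were at or near 0, with at most 32 counts in a library and 2 of 5 markers without any count.

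The farthest pair, Dnajb11 (ENSMUSG00000004460, chr16:22857845-22879634), which encodes a chaperone of the endoplasmic reticulum, and Tbccd1 (ENSMUSG00000004462, chr16:22813214-22857669), which encodes a protein with a tubulin cofactor domain, lie 267 kb or more from Adipoq. Dnajb11 had 34.8, 40.3, 33.6, 34.7 and 35.1 CPM in WT and 30.4 to 35.3 CPM in iFAXLKO, with a median of 32.8 CPM and a log2 fold change of -0.11 (SE 0.06). For Tbccd1 the WT values were 16.3, 17.4, 16.6, 16.2 and 18.3 CPM, the iFAXLKO values lay from 13.7 to 17.5 CPM with a median of 16.3 CPM, and the log2 fold change was -0.08 (SE 0.07). Both pairs of ranges overlapped.

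The 6 raised genes, part of a set chosen around Adipoq, lay from the start of Eif4a2 to the end of BC106179, over 118 kb. Raised here means CPM ranges that did not overlap. By the ratio of the lowest iFAXLKO to the highest WT library, Adipoq met this narrowly (1.02) and St6gal1 narrowly missed it (0.955). Within 1 Mb of Adipoq on either side, 38 further genes are annotated, of which 11 were tested and 27 were not, none of these with more than 25 counts in a library. Of the 11, 6 were the small RNA genes inside Eif4a2 described above, and of the 5 others 0 were called in edgeR (1 at an unadjusted p under 0.05, and 1 called with DESeq2). That gene was Igf2bp2, which encodes an mRNA-binding protein and lies 983 kb away. It had a log2 fold change of -0.58 (SE 0.12) and an adjusted p of 0.103 in edgeR and 0.00269 in DESeq2, with the iFAXLKO libraries at 3.66 to 5.31 CPM and the WT libraries at 5.61 to 7.80 CPM. Bcl6 had a log2 fold change of 0.41, Rtp4 of 0.08, Etv5 of -0.07 and Tra2b of -0.08, with adjusted p from 0.707 to 0.974, and Gm31814, just outside the window, had -0.35 (adjusted p 0.855). On the whole of chromosome 16, 404 genes were tested beside these 10 and the small RNA genes in Eif4a2, and 0 of them were called in edgeR and 1, Igf2bp2, in DESeq2. At an unadjusted p under 0.05 there were 29 of them, or 7.18%, and 7.38% of all genes tested.

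**Figure D2:**
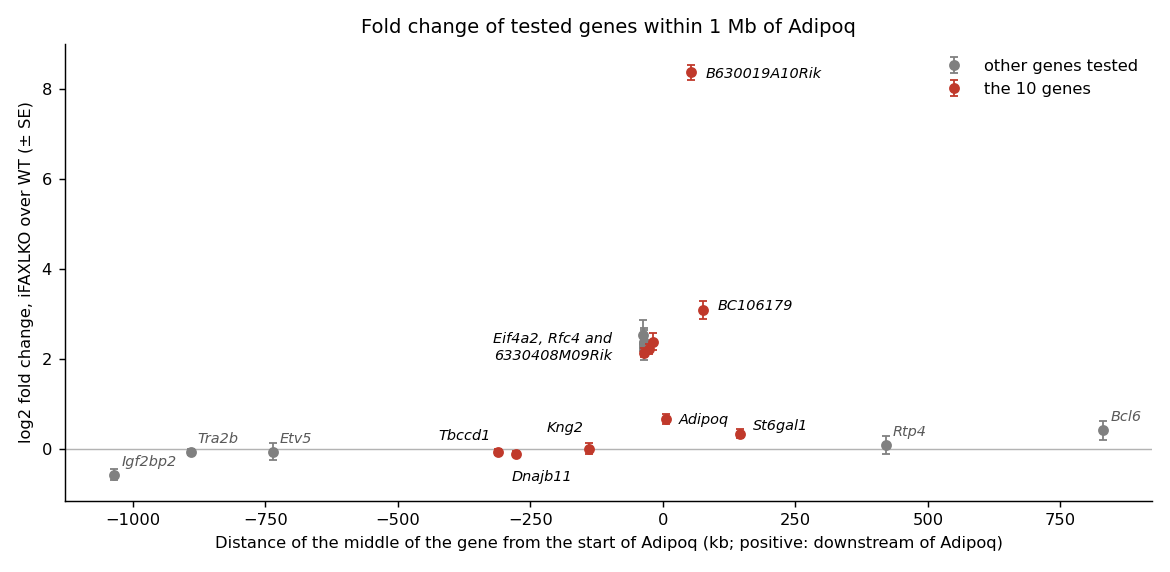
Log2 fold change of iFAXLKO over WT (points, with SE bars) of the 10 genes (red) and of the other genes tested within 1 Mb (grey), against the distance of the middle of each gene from the start of Adipoq in kb. The points at 2.13 and above all lie close to Adipoq, with the 6 small RNA genes at the place of Eif4a2, and Kng2 at 0.00 and St6gal1 at 0.33 flank them.

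The amount of RNA added in iFAXLKO over WT differed greatly among the raised genes. Summed over the 6 genes it was 1281 CPM, from 953.9 ± 75.7 CPM (SD, n = 5) to 2235 ± 73.7 CPM (SD, n = 8), or from 0.0954% to 0.223% of the reads. Eif4a2 made up 62.7% of this sum, with 803.4 CPM added (SE 36.9), and Adipoq 32.1%, with 411.7 CPM added (SE 62.3). B630019A10Rik, Rfc4, BC106179 and 6330408M09Rik gave 2.74%, 1.81%, 0.292% and 0.281%.

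Relative to WT the order was another one. Adipoq gained 58.1% of its WT mean, Eif4a2 338%, Rfc4 360%, 6330408M09Rik 426% and BC106179 762%. Eif4a2 and Rfc4 thus differed by like factors, and their ratio was 35.1 ± 2.9 (SD, n = 8) in iFAXLKO and 38.8 ± 9.9 (SD, n = 5) in WT, with overlapping ranges. In contrast, the ratio of Adipoq to Eif4a2 was 1.09 ± 0.21 (0.721 to 1.37) in iFAXLKO and 3.03 ± 0.74 (2.54 to 4.33) in WT.

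Per kb of exon, which allows levels of genes to be compared, Adipoq stood at 513 CPM per kb in WT and 811 CPM per kb in iFAXLKO, and so had the largest addition, 298 CPM per kb (SE 45.0). Eif4a2 followed with 151 CPM per kb added (SE 6.9) and Rfc4 with 15.1 CPM per kb. The additions were 4.16 CPM per kb for B630019A10Rik, 3.18 for 6330408M09Rik and 0.901 for BC106179.

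**Figure D3:**
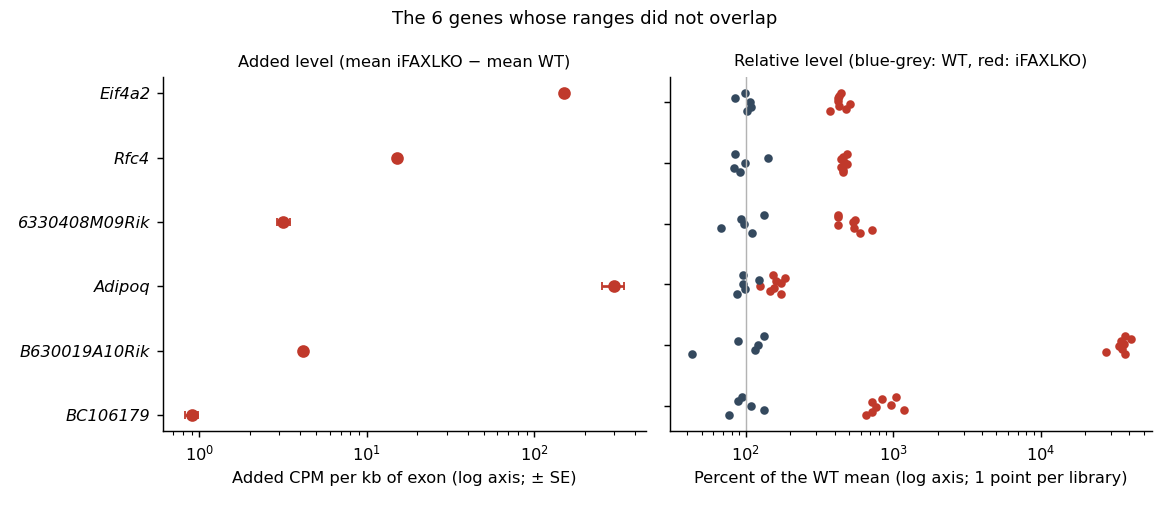
Left, mean iFAXLKO minus mean WT level of the 6 raised genes in CPM per kb of exon (log axis, SE bars), and right, the level in each library as a percent of the gene's WT mean (log axis, 1 point per library). Adipoq had the highest added level, 298 CPM per kb, and the lowest relative one, whereas B630019A10Rik reached 27900% to 40800% of its WT mean.

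Whether the raised genes varied together among libraries of the same genotype was asked next, since differences between libraries of 1 group were not used to choose them. Over the 8 iFAXLKO libraries, 0 of the 15 pairs of raised genes were related at an adjusted p under 0.05 (exact permutation tests of Pearson's r of log2 CPM over all orders of the libraries, 2-sided, adjusted by Benjamini-Hochberg over 15 pairs), with 1 pair under 0.05 unadjusted, and 8 of the 15 values of r were negative. That pair was Adipoq and Eif4a2, which ran in opposite directions. Replicate 5 had the lowest Adipoq level (878.9 CPM) and the highest Eif4a2 level (1219 CPM), while replicate 8, with 1218 CPM of Adipoq, had the lowest Eif4a2 level (888.1 CPM). Pearson's r was -0.84 (exact permutation p = 0.0126, adjusted 0.189) and Spearman's rho -0.83 (exact permutation p = 0.0154, adjusted 0.231), and r was -0.88 without the 2 libraries farthest from the Adipoq median.

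Over all 13 libraries with group means subtracted, the inverse relation of Adipoq and Eif4a2 was the 1 of 15 pairs that passed, with r = -0.83 (permutation p = 0.00043, adjusted 0.00645, 100000 permutations) and rho = -0.85 (permutation p = 0.0004, adjusted 0.006). The subtracted means came from these same libraries, so the p-values over 13 libraries are approximate. WT replicate 2, with the highest Adipoq level of its group, had the lowest Eif4a2 level. Without the 2 libraries farthest from the median r was -0.63, it lay between -0.88 and -0.77 when 1 library was left out, and within the lower and upper ranges of library numbers it was -0.78 and -0.81. Over the 8 iFAXLKO libraries it lay between -0.92 and -0.66 when 1 was left out, -0.66 being the value without replicate 5 (exact permutation p = 0.094), and on CPM without TMM factors it was -0.64.

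The other pairs showed no relation that passed. Eif4a2 and Rfc4, whose WT levels differed by like factors from those in iFAXLKO, had r = 0.50 over the 8 iFAXLKO libraries (exact permutation p = 0.207, adjusted 0.444) and r = -0.45 over 13 with group means subtracted, so that not even the sign was stable. B630019A10Rik and BC106179, which overlap, had r = 0.29 (exact permutation p = 0.523, adjusted 0.871), and Rfc4 and 6330408M09Rik, which share a start region, r = -0.56 (exact permutation p = 0.149, adjusted 0.444). For the last pair r was 0.04 without the 2 libraries farthest from the Rfc4 median. Correlations of 8 libraries are imprecise, and the small counts of BC106179 and 6330408M09Rik add to this.

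**Figure D4:**
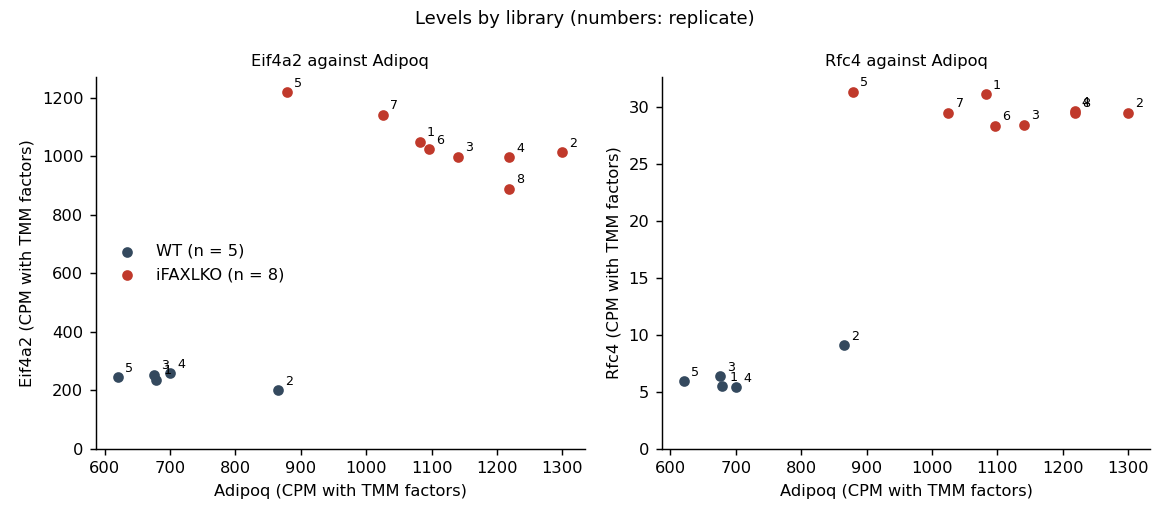
Eif4a2 (left) and Rfc4 (right) against Adipoq, each in CPM with TMM factors, with 1 point per library and its replicate number (WT n = 5, iFAXLKO n = 8). Within iFAXLKO the relation of Eif4a2 to Adipoq was inverse (r = -0.84) but did not pass (adjusted exact permutation p 0.189). Replicates 5 and 8 lie near the ends, and replicate 2, highest in Adipoq (1300 CPM), had 1014 CPM of Eif4a2. Rfc4 stays between 28.3 and 31.3 CPM in iFAXLKO.

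Marker levels of other cells differed between libraries, and their relation to the raised genes was examined with scores, the mean log2 CPM of a list of markers. Of 12 relations of the 6 genes with the adipocyte identity score (14 genes without Adipoq) or the skeletal muscle score (10 genes), 0 passed over the 8 iFAXLKO libraries, with 1 under 0.05 unadjusted. The strongest was that of Eif4a2 with the muscle score, r = 0.82 (exact permutation p = 0.014, adjusted 0.168), which was 0.41 without the 2 libraries farthest from the Eif4a2 median and 0.42 over 13 libraries with group means subtracted. For Adipoq and the adipocyte identity score r was 0.41 (exact permutation p = 0.318, adjusted 0.544). Over 13 libraries with group means subtracted it was 0.55 (permutation p = 0.0502, adjusted 0.227). Eif4a2 with the adipocyte identity score was the strongest there, r = -0.70 (permutation p = 0.00762, adjusted 0.0914), and 0 of 12 relations passed. Whether this score accounts for the inverse relation of Adipoq and Eif4a2 was not tested. With the muscle score regressed out of each gene and the remainders treated as exchangeable, 3 of 15 pairs passed, all inverse: Adipoq and Eif4a2 (r = -0.81, exact permutation p = 0.00905, adjusted 0.0453), Eif4a2 and B630019A10Rik (r = -0.80, exact p = 0.00241, adjusted 0.0361), and B630019A10Rik and 6330408M09Rik (r = -0.91, exact p = 0.00734, adjusted 0.0453). Before this step both pairs with B630019A10Rik failed to pass, at r = -0.57 and -0.67 (adjusted exact permutation p 0.444 for each). With group means subtracted over 13 libraries they had -0.16 and -0.33. Their sign was not stable, being positive in the lower range of library numbers (0.68 and 0.29) and negative in the upper (-0.16 and -0.54).

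Marker lists of several cell types leaned to 1 side between the genotypes. All 9 fibroblast markers had positive log2 fold changes, with a median of 0.71, unadjusted p under 0.05 for 9 of 9 (7.38% of all genes tested) and a lowest adjusted p of 0.122, and their summed level was 541.9 to 1195 CPM in iFAXLKO and 390.4 to 698 CPM in WT. So had all 7 macrophage markers, with a median of 0.39, unadjusted p under 0.05 for 7 of 7 and sums of 124.8 to 236 against 102.3 to 149.9 CPM. All 8 brown adipocyte markers had negative values, with a median of -0.16 and 1 at an unadjusted p under 0.05. Of 14 adipocyte identity genes, 3 had positive and 11 negative values, with a median of -0.03, and of 5 endothelial markers 4 were positive with a median of 0.15. In edgeR 0 of these genes were called, in DESeq2 the fibroblast markers Dcn and Lum were, and the median over all genes tested was -0.012. In bulk tissue fewer cells of a type and less RNA per cell cannot be told apart. With the fibroblast score as a covariate the log2 fold change was 0.59 for Adipoq, 2.04 for Eif4a2, 2.19 for Rfc4, 8.42 for B630019A10Rik, 3.06 for BC106179 and 2.46 for 6330408M09Rik.

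Genes that work with the products of the raised genes were followed from lists, in which neither edgeR nor DESeq2 called a gene. None of the 12 other eIF4F factors and regulators tested was called, with 1 positive and 11 negative values, a median log2 fold change of -0.12 and 1 at an unadjusted p under 0.05. Per kb of exon, Eif4a1, the close paralog of Eif4a2, stood at 43.9 ± 5.99 CPM per kb in WT (SD, n = 5), next to 44.6 ± 4.31 CPM per kb of Eif4a2. In iFAXLKO it had 39.7 ± 2.45 CPM per kb (SD, n = 8) beside 195 ± 18.7 CPM per kb of Eif4a2, and its log2 fold change was -0.14 (SE 0.08, adjusted p 0.74 in edgeR). The share of Eif4a2 in the sum of both paralogs was thus 50.5 ± 5.53% in WT (SD, n = 5, 40.8% to 54.7%) and 83.0 ± 1.32% in iFAXLKO (SD, n = 8, 80.8% to 85.2%). Eif4g2, an initiation factor that does not bind the cap-binding protein, had the smallest p of the list, with a log2 fold change of -0.21 and an adjusted p of 0.664.

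The other subunits of replication factor C did not follow Rfc4. Their log2 fold changes were -0.05 for Rfc1, -0.06 for Rfc2, -0.08 for Rfc3 and 0.11 for Rfc5, and 0 of 9 clamp and clamp loader genes tested was called, with a median of -0.05. In WT, Rfc4 lay among its partners at 4.20 ± 0.997 CPM per kb (SD, n = 5), between Rfc1 with 6.54 ± 0.427 and Rfc2 with 3.24 ± 0.598 CPM per kb. In iFAXLKO it exceeded all of them, at 19.3 ± 0.699 CPM per kb (SD, n = 8) next to 6.30 ± 0.507 CPM per kb for Rfc1.

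**Figure D5:**
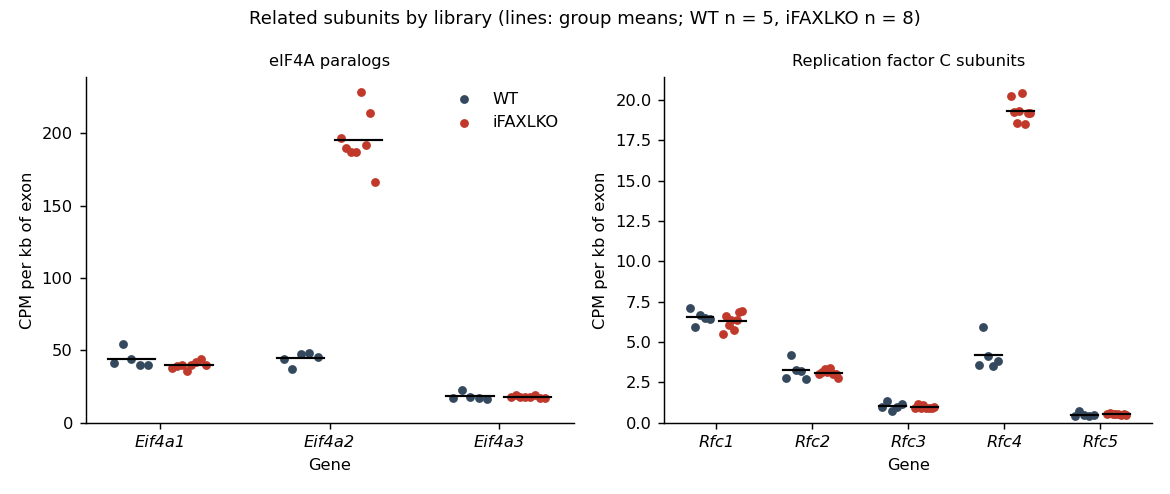
CPM per kb of exon in each library of the eIF4A paralogs (left) and of the subunits of replication factor C (right), with a line at each group mean (WT n = 5, iFAXLKO n = 8). Eif4a2 (195 against 44.6 CPM per kb) and Rfc4 (19.3 against 4.20 CPM per kb) stand apart in iFAXLKO, while the points of the other subunits overlap between the genotypes.

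Of 10 genes for adiponectin receptors, secretion and signalling 0 were called, with a median log2 fold change of -0.04. The receptor genes Adipor1 and Adipor2 had -0.06 (adjusted p 0.905) and 0.00 (adjusted p 0.998), and Cdh13, which encodes the adiponectin-binding T-cadherin, 0.26 (SE 0.11, adjusted p 0.619). Among adipocyte genes other than Adipoq, the largest values were those of Retn, which encodes resistin, with 0.87 (SE 0.27, adjusted p 0.49), and Cfd, which encodes adipsin, with 0.72 (SE 0.33, adjusted p 0.678), all in edgeR. For both, 8 of 8 iFAXLKO libraries lay above the WT mean, but the ranges overlapped. Above the highest WT library were 4 of 8 for Retn and 2 of 8 for Cfd. None was called of 6 sialyltransferases (median 0.08), 8 chaperones of the endoplasmic reticulum (median -0.08) and 6 tubulin cofactors (median -0.04), the relatives of St6gal1, Dnajb11 and Tbccd1. Within them the smallest p belonged to St3gal1 (0.26, adjusted p 0.757), Sec63 (-0.22, adjusted p 0.68) and Tbcd (-0.18, adjusted p 0.699). Of 6 kallikrein and kinin genes, the partners of Kng2, Ace alone was tested, with 0.15 (adjusted p 0.859). Esr1, the mouse oestrogen receptor, whose human counterpart gave CreERT2 its tamoxifen-binding part, was at 33.0 ± 11.4 CPM in iFAXLKO (SD, n = 8) and at 17.6 ± 3.76 CPM in WT (SD, n = 5). Its log2 fold change was 0.91 (SE 0.23), with an adjusted p of 0.349 in edgeR. Above the WT mean were 8 of 8 iFAXLKO libraries, and 6 were above the highest WT library. DESeq2 called it, with an adjusted p of 0.0142.

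The genes outside 1 Mb whose log2 CPM ran most like that of the raised genes over the 13 libraries were sought as a description. For Adipoq these were Mtmr11 (r = 0.92), Cmbl (0.90) and Clmp (0.90), for Eif4a2 Col6a6 (0.91), Tspan7 (0.87) and Zfp788 (0.84), and for B630019A10Rik Col6a6 (0.91), Clmp (0.85) and Cadm3 (0.84). With group means subtracted they were Oaf (0.92), 1110059E24Rik (0.91) and Kazald1 (0.91) for Adipoq, Mafg (0.89), Pi4k2b (0.88) and Rhbdf2 (0.88) for Eif4a2, and Scn3b (0.91), Dennd6b (0.87) and Spata7 (0.86) for B630019A10Rik. No gene was in more than 1 of the latter lists. B630019A10Rik had only 1 to 4 counts in each WT library, so its WT points mostly hold counting error. Where group means were kept, r also holds the difference between the genotypes by which the raised genes were chosen. The points share libraries and depth, and with 13 points and all tested genes searched, values of this size carry little weight.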

How the data were processed

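The authors deposited 1 file of raw read counts per library, with 42416 Ensembl identifiers each. Per the methods of the study, reads were trimmed with Trim Galore and mapped to GRCm38 with hisat2 after depletion of ribosomal RNA. The submitters' processing notes instead name bcl2fastq 2.20, fastp 0.20.0, STAR 2.7.4a, DESeq2 and GRCm38.p6, and the labels polyadenylated RNA. How reads were counted, and whether by strand, is not given in the sources used here. If strand was ignored, overlapping genes on opposite strands share or lose reads.

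Symbols were found for 42263 identifiers, and positions and exons come from GENCODE M21 (GRCm38), with positions counted from 1. Exon length is the union of all annotated exons, so that rarely used exons lower a level per kb. Genes over 1 CPM in at least 5 libraries were tested with edgeR 4.0.16 (R 4.3.3; TMM factors, robust quasi-likelihood F test, Benjamini-Hochberg over 13360 genes, limit 0.05). Added levels are differences of mean CPM, with the SE from both group SDs. Log2 CPM used a prior count of 2. Permutation tests used numpy 2.4.6 and scipy 1.17.1. Total counts of 22.44 to 32.6 M per library put the floor of 3 counts at 0.092 to 0.134 CPM, and floors cover counting error only. No pair of libraries in a group agreed within sampling noise (chi-square per degree of freedom at least 15.3). The labels number the libraries as replicates without stating that each came from its own mouse, so p-values measure the spread between these libraries.

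The genes, the lists and the rule for naming others were chosen with earlier results of these data known. The rule names all 10 genes, the genes tested between them and the 3 nearest beyond on each side, Axl, Esr1, the called or else the lowest-p gene of each related list, and the most alike genes. The other subunits and paralogs, the adiponectin receptors, Retn, Cfd, Dcn and Lum were named after their values were seen. Alternatives were DESeq2, RLE factors, other library sizes and filters, a replicate block, library number ranges, muscle and fibroblast scores and leaving out each library. The block's libraries without the block, and r of Adipoq with Eif4a2 without each of the 13 libraries, were added after seeing the data.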

Additional observations from a re-analysis of the deposited data

Results flagged for a closer look

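Among 24 groups of values checked (10 genes and both genotypes, with Axl and Esr1), 2 held a library far from the others by Dixon's test at the 95% level, where chance gives about 5% of groups. Both were highest in WT replicate 2. Rfc4 was at 9.08 CPM there, with the next library at 6.35 CPM, a gap of 0.738 of the group's whole range. Dnajb11 was at 40.3 CPM, with the next at 35.1 CPM, a gap of 0.769 of the range. The TMM factor of this library, 0.897, was the lowest of all, and its part in these values was not tested.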

How the results depend on the processing

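In edgeR 17 genes were called, or 0.127% of all genes tested. Of these, 12 lay on chromosome 16, all among the 10 genes or the small RNA genes inside Eif4a2. The 10 genes were chosen by this contrast and the reads of the small RNA genes cannot be told apart from those of Eif4a2. Nothing is therefore read from this count of 12. The count of 17 genes called was 67 with DESeq2, 7 with the replicate block, 8 with the fibroblast score as a covariate, 4 within the lower range of library numbers and 10 within the upper, and 14 to 19 when 1 library was left out. The replicate block used replicates 1 to 5, which without the block gave 12. Same-numbered libraries deviated with r of 0.392, 0.422, 0.188, 0.181 and -0.614. No r of differently numbered libraries was computed, so whether the numbers pair the libraries was not decided. The 6 small RNA genes inside Eif4a2 were over the filter only through iFAXLKO, so their calls under these settings are not read as a result. Axl turned to -0.20 with the fibroblast score. Of 15 pairs of raised genes 0 passed, 1 over 13 libraries with group means subtracted, 3 with the muscle score removed, and 0 to 1 when 1 library was left out, the 1 being Adipoq with Eif4a2 without iFAXLKO replicate 2 (adjusted p 0.0417, 0.0417 to 0.47 over the 8). The causes were not tested. Over 25 alternatives the median log2 fold change of the 10 genes was 1.31 to 1.41, and the 6 raised genes kept their direction, with 0.59 to 0.74 for Adipoq, 2.04 to 2.22 for Eif4a2, 2.03 to 2.36 for Rfc4, 8.21 to 8.49 for B630019A10Rik, 2.96 to 3.27 for BC106179 and 2.08 to 2.63 for 6330408M09Rik. Kng2 lay between -0.20 and 0.15. Depth limits B630019A10Rik in WT, with 1 to 4 counts a library.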
